A study of Mus musculus with 48 samples.

Results

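The genes described here are 10 mouse genes widely used as markers of macrophages: Cd68, C1qa, C1qb, C1qc, Csf1r, Aif1, Cx3cr1, Ptprc, Tyrobp and Mrc1. They were chosen by symbol, through the Ensembl identifiers of the expression tables, and all 10 were found among 34183 genes. Macrophages are phagocytic immune cells that reside in most tissues, and sensory ganglia hold a resident population close to neuron cell bodies that expands after nerve injury. Their survival depends on the receptor tyrosine kinase encoded by Csf1r, and they are a main source of complement C1q, the recognition protein of the classical complement pathway, whose chains are encoded by C1qa, C1qb and C1qc.

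The genes were followed in RNA from neuron-enriched cultures of dorsal root ganglia of adult wild-type mice, in 48 libraries of 12 groups with 4 libraries each. One group, time0, was collected at 0 h without transfection. The other groups were transfected at once and collected 42 h later. Of these, siCONTROL received a control siRNA pool, and 7 groups received pools against Atf3, Atf4, Jun, Stat3, Klf6, Rest or Alyref (siAtf3, siAtf4, siJun, siStat3, siKlf6, siRest and siAlyref). The remaining 3 groups received mRNA for GFP, for Atf4, or for Atf4 and Cebpg together. Whether the 4 libraries of a group came from different animals or dishes is not in the labels, and the spread behind each p-value may be technical. The cultures are enriched for neurons and are not pure: neuronal, glial, fibroblast and endothelial transcripts were all present, and a lower level of a macrophage gene in such bulk RNA can reflect fewer macrophages or less RNA per macrophage, which cannot be told apart.

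Library totals ran from 1539198 to 6621566 estimated counts. The lowest belonged to siKlf6 replicate 1, followed by siRest replicate 1 (1937372) and the Atf4 and Cebpg mRNA replicate 1 (2097054). Levels are CPM, the counts scaled to a common library total, with TMM size factors. The deposited values are weighted by transcript length: the lowest value above 0 of a gene fell with its length, from a median of 3.27 for transcripts of 500 to 1000 bp to 0.413 for those over 4000 bp. The CPM are therefore per length, and levels can be set beside each other across genes. In each knockdown group the targeted gene was below siCONTROL without overlap, from 2.57-fold lower by means for Rest to 5.95-fold for Atf4 (n = 4 each). With mRNA, Atf4 was 22-fold (Atf4 mRNA) and 32.5-fold (Atf4 and Cebpg mRNA) above GFP mRNA, and whether these counts include the supplied mRNA was not tested. The tables of the siRNA and mRNA experiments may have been scaled separately, and no test was made between them.

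The promoters of Cd68, C1qb and C1qc are shown because Cd68 and the C1q chains moved in opposite directions in culture. RefSeq promoters of GRCm38.p6 were taken for 7 of the 10 genes, and those of C1qa, Tyrobp and Csf1r were not searched. Each sequence covers 250 bases before the annotated start, 5′ to 3′ on the gene's strand, which is the minus strand in each case: chr11:69666171-69666420 for Cd68, chr4:136886201-136886450 for C1qb and chr4:136892915-136893164 for C1qc. Capitals mark the letters GAGGAA (a core recognised by PU.1, a factor that macrophage development needs) or its reverse complement TTCCTC, and TGANTCA (the AP-1 site, bound by Jun dimers).
Cd68: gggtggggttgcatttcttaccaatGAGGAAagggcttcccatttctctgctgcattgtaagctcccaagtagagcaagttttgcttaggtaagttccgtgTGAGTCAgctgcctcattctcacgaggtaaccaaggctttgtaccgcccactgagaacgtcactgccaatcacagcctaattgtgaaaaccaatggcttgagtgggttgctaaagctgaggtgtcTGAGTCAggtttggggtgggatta
C1qb: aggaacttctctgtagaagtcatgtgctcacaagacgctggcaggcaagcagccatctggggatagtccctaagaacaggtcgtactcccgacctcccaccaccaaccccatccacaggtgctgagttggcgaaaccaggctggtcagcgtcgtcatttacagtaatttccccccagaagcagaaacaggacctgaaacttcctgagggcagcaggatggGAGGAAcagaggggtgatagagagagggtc
C1qc: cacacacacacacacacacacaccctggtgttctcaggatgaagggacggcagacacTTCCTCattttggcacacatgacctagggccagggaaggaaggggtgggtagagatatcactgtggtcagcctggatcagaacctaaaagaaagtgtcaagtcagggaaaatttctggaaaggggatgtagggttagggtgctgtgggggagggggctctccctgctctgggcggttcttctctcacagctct

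The PU.1 letters were in all 3 of these promoters. Searched on both strands, they were in a promoter of 6 of the 7 genes (Cd68, C1qb, C1qc, Aif1, Ptprc and Mrc1, not Cx3cr1). A further promoter of Ptprc held no match. The letters occurred in 23.3% of 32851 mouse promoters of the same length, a share counted per promoter and not per gene. Among the 7 genes, the AP-1 letters were in Cd68 only, with matches that begin 149 and 24 bases before the start. They occurred in 6.75% of all promoters. The letters TGATGCAA, a composite site of C/EBP and ATF factors, were in none of the 7 genes and in 0.791% of all promoters. No match overlapped another in the sequences shown. A match describes letters and was not tested as a binding site.

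Between 0 h and 42 h of culture the 10 genes did not move as a group: Cd68 and Csf1r were higher in siCONTROL than in time0, and C1qa and C1qb were lower. The comparison asks how the levels of these genes differed before and after the cultures were kept; the cells that carried the transcripts were not identified. Since time0 was not transfected and siCONTROL was, time in culture and transfection cannot be told apart. Only 4 of the 10 genes passed the filter on low counts, 2 were called higher and 2 lower (edgeR quasi-likelihood test, adjusted p below 0.05). Each passed only through the group where it was high: siCONTROL for Cd68 and Csf1r, time0 for C1qa and C1qb. A call could thus hardly go the other way, and the count of calls adds little to the levels. Without the filter the edgeR adjusted p were 3.92e-08 (Cd68), 0.00575 (Csf1r), 6.34e-05 (C1qa) and 0.00252 (C1qb). Of all 13448 genes tested, 57.9% were called, 28.7% higher and 29.2% lower, so a call in this comparison is common.

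Cd68 encodes a heavily glycosylated protein of the lysosomal and endosomal membrane, abundant in macrophages. Its level was 1.57, 0.531, 0.481 and 1.07 CPM in the 4 time0 libraries and 23.7, 39.7, 26.7 and 31.5 CPM in the 4 siCONTROL libraries. Every siCONTROL library lay far above every time0 library. The mean rose from 0.914 ± 0.514 to 30.4 ± 6.99 CPM (SD, n = 4 each), a 35.8-fold difference (log2 fold change 5.16, SE 0.32, edgeR adjusted p = 1.93e-07). Per length, Cd68 was below the mean of each C1q chain at 0 h and above all 9 other genes at 42 h.

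Csf1r encodes the receptor for the growth factors Csf1 and Il34. It stood at 1.23, 1.71, 1.69 and 1.5 CPM at 0 h and at 2.37, 5.14, 5.61 and 4.41 CPM in siCONTROL. The groups did not overlap, although the rise was far smaller than that of Cd68. The mean went from 1.53 ± 0.224 to 4.38 ± 1.43 CPM (SD, n = 4 each), 2.85-fold higher (log2 fold change 1.51, SE 0.338, edgeR adjusted p = 0.0026). The Csf1r gene overlaps Hmgxb3 on the opposite strand, and whether counting used strand is not given in the sources used here.

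**Figure D1:**
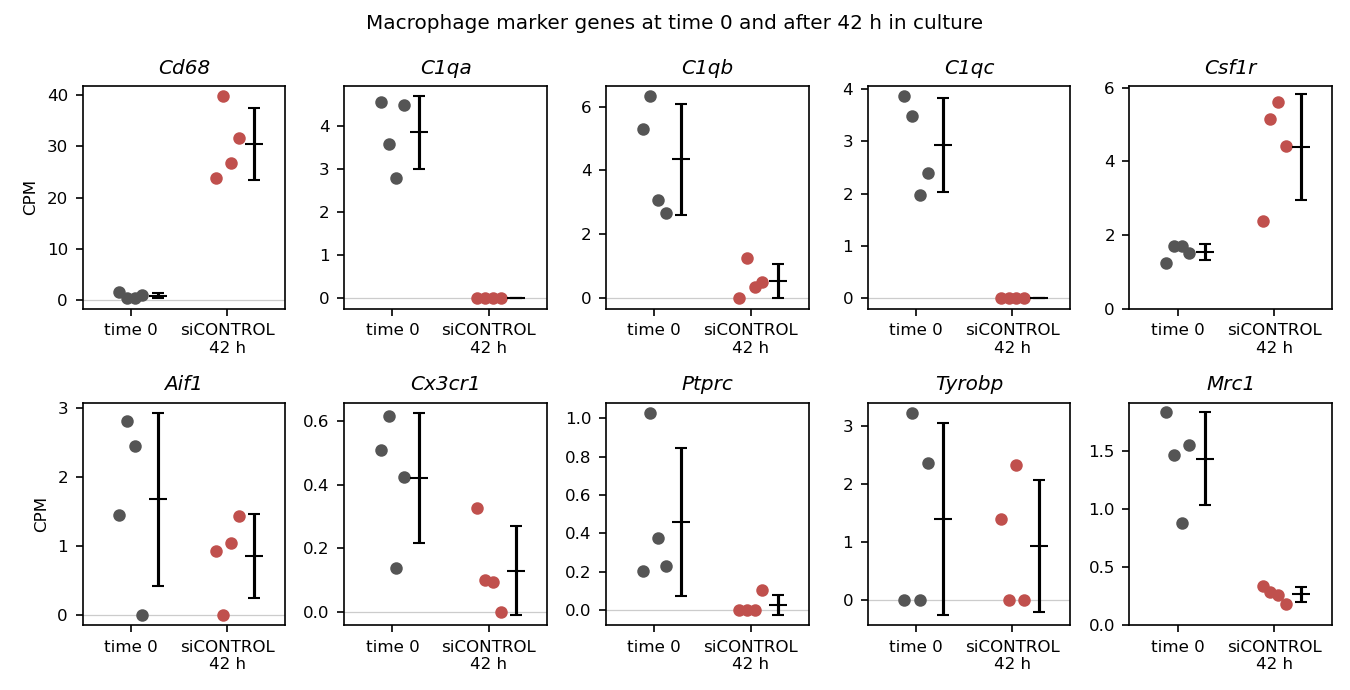
Level of each of the 10 genes in every library of time0 and siCONTROL, in CPM on linear axes that differ between genes, with 1 point per library and the mean ± SD beside them (n = 4 each). Cd68 and Csf1r sit higher in siCONTROL, and C1qa and C1qc are at 0 in all 4 siCONTROL libraries.

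The C1q chains went the other way. C1qa, the A chain, was at 4.56, 3.59, 2.79 and 4.51 CPM at 0 h and at 0 in all 4 siCONTROL libraries. Against a floor of 3 reads over the siCONTROL group, with 1 read worth about 2.18 estimated counts, this is at least 11.9-fold lower (edgeR adjusted p = 4.89e-05). C1qb, the B chain, was at 5.29, 6.33, 3.09 and 2.67 CPM at 0 h and at 0, 1.27, 0.351 and 0.49 CPM in siCONTROL. All 4 siCONTROL libraries lay below all time0 libraries, and the mean fell from 4.35 ± 1.75 to 0.527 ± 0.534 CPM (SD, n = 4 each), 7.28-fold lower (log2 fold change -2.86, SE 0.579, edgeR adjusted p = 0.00134). C1qc, the C chain, did not pass the filter. It was at 3.86, 3.48, 1.97 and 2.39 CPM at 0 h and at 0 in all 4 siCONTROL libraries, at least 10.8-fold lower by the same floor, and was called lower when no filter was applied (edgeR adjusted p = 0.000222).

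The other 5 genes that did not pass the filter were lowly expressed throughout. Mrc1, the mannose receptor CD206 of tissue macrophages, was at 1.84, 1.47, 0.885 and 1.56 CPM at 0 h and at 0.338, 0.289, 0.256 and 0.178 CPM in siCONTROL, with no overlap. Ptprc, the tyrosine phosphatase CD45 carried by nearly all leukocytes, was above 0 in all 4 time0 libraries (0.205 to 1.03 CPM) and in 1 siCONTROL library (0.104 CPM). Without the filter on low counts both were called lower (edgeR adjusted p = 0.0286 for Mrc1 and 0.0438 for Ptprc), which brought the count to 2 genes higher and 5 lower. Counts were rounded for the test, so the siCONTROL value of Ptprc, 0.453 estimated counts, entered it as 0. The call of Ptprc therefore depends on this rounding and on few reads.

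Aif1, Cx3cr1 and Tyrobp gave no call under either setting, and at these levels 1 read decides a value. Aif1 encodes the calcium-binding protein Iba1 and was at 1.44, 2.81, 2.44 and 0 CPM at 0 h and at 0.928, 0, 1.04 and 1.43 CPM in siCONTROL. Cx3cr1, the receptor for the neuronal chemokine Cx3cl1, was at 0.139 to 0.616 CPM at 0 h and at 0 to 0.327 CPM in siCONTROL. Tyrobp, the adaptor DAP12 that signals for Trem2, was above 0 in 2 of 4 libraries of each group. The groups overlapped for all 3 genes, and without the filter their edgeR adjusted p were 0.402, 0.335 and 0.775. A difference was not detectable at this depth.

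The opposite direction of Cd68 dominated the sum of the list. Summed over all 10 genes, levels were 13.9 to 24.8 CPM in the time0 libraries and 29.1 to 46.5 CPM in siCONTROL. Without Cd68 and Csf1r the other 8 genes summed to 11.7 to 22.6 CPM (median 15.9) at 0 h and 1.66 to 4.06 CPM (median 2.59) in siCONTROL. Without Cd68 alone, the other 9 summed to 13.4 to 24.3 and 5.35 to 9.66 CPM, so the direction of a summed level of these genes rested on Cd68.

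Further macrophage and monocyte genes stood between these patterns. Of 24 listed, 7 were tested, with 1 higher and 3 lower and a median log2 fold change of -1.30, against 0.01 over all genes tested. Cd74, the invariant chain of MHC class II, fell from 25.7 ± 8.42 to 1.06 ± 0.941 CPM (23.7-fold, edgeR adjusted p = 3.01e-06, n = 4 each). Laptm5, a lysosomal protein of blood cells, was 2.58-fold lower (adjusted p = 0.0297, and up to 0.12 with single libraries left out) and Ly86, a partner of the receptor CD180, 2.46-fold lower (adjusted p = 0.00036). Mertk, a receptor for the uptake of dying cells, was 1.99-fold higher (adjusted p = 0.00943). The list summed to 179 to 271 CPM at 0 h and 80.9 to 100 CPM in siCONTROL. Most of both sums was Ly86 alone, at means of 157 ± 53.8 and 64.4 ± 10.4 CPM. Cd52, Fcgr1, Cd163, Ms4a7, Trem2 and Ccr2 were at 0 in all 4 siCONTROL libraries.

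Both ligands of Csf1r also rose. Among 11 partners and ligands of the marker genes, 6 were tested, of which 3 were called higher and 3 lower. Csf1, the colony-stimulating factor that binds Csf1r, went from 13.5 ± 2.71 to 101 ± 7.58 CPM (7.43-fold, edgeR adjusted p = 1.74e-08, n = 4 each). Il34, the second ligand, went from 20.1 ± 2.67 to 69.9 ± 7.66 CPM (3.47-fold, adjusted p = 3.85e-07). Of the complement genes, C4b, which acts after C1q, was 3-fold lower (adjusted p = 0.00138), and Serping1, the inhibitor of the C1 proteases, was 1.97-fold lower (adjusted p = 0.00114).

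Cd68 was not the only lysosomal or injury-associated gene to rise. Of 14 genes known from lipid-laden or injury-activated macrophages, 8 were tested, 6 were higher and 2 lower, with a median log2 fold change of 2.36. Mmp12, macrophage metalloelastase, went from 0.0871 ± 0.174 CPM, with 1 of 4 libraries above 0, to 30.7 ± 7.33 CPM (edgeR adjusted p = 1.54e-07, n = 4 each). Lgals3, galectin-3, was 33.1-fold higher, Gpnmb 7.85-fold and the receptor Axl 6.95-fold (adjusted p = 8.03e-10, 2.04e-06 and 3e-08). All 18 lysosomal genes were tested, with 12 higher and 3 lower and a median of 0.30 on the log2 scale. Cd63, a membrane protein of late endosomes, was 7.17-fold higher (adjusted p = 4.3e-09), Gusb, beta-glucuronidase, 2.21-fold, and Grn, progranulin, 1.86-fold (adjusted p = 7.08e-05 and 8.99e-06). Neurons and glia also express lysosomal genes.

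**Figure D2:**
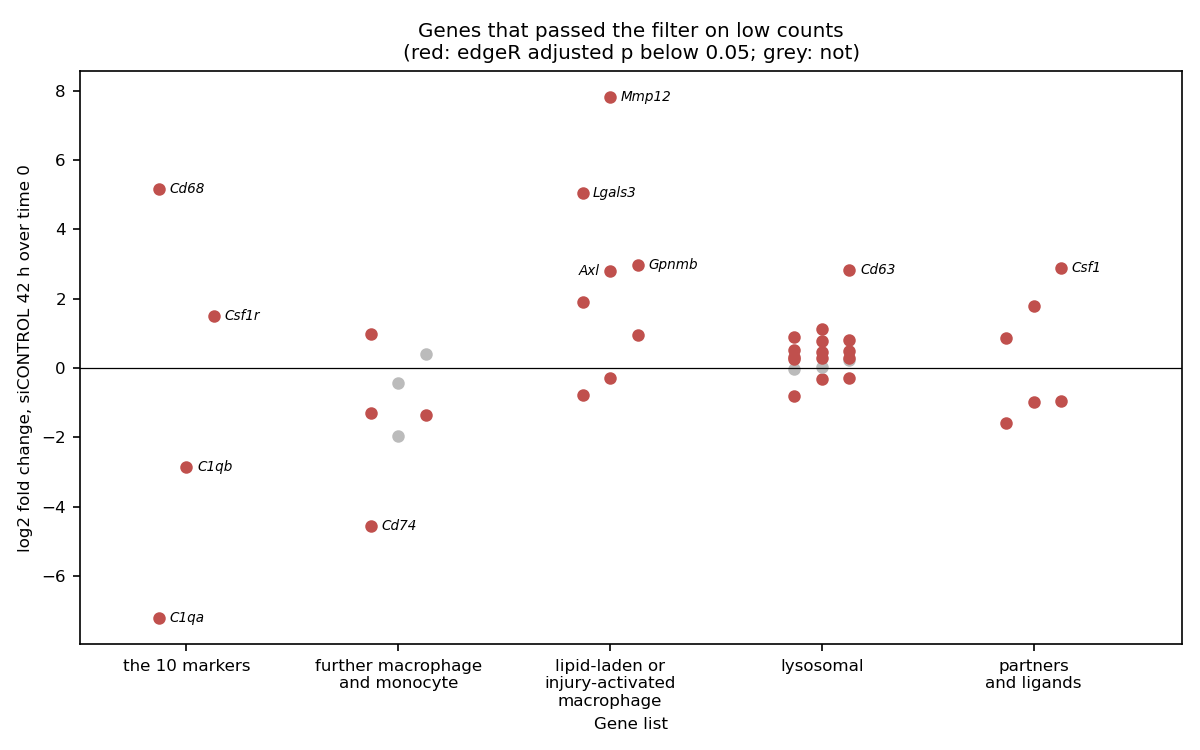
Log2 fold change of siCONTROL over time0 for each tested gene of the marker genes and of the related lists, with 1 point per gene, red for genes past the threshold and grey for the others. Cd68 (5.16) lies beside Lgals3 (5.05), and C1qa, C1qb and Cd74 lie at the low end; the fitted values of C1qa, at 0 in siCONTROL, and of Mmp12, near 0 at 0 h, set no size of change.

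Markers of other cell types moved in the same comparison. The 6 endothelial markers were all higher (summed level 54.1 to 83.2 CPM at 0 h and 167 to 226 CPM in siCONTROL). Of the satellite glia markers 2 were higher and 4 lower (4507 to 5573 and 732 to 854 CPM), of the Schwann cell markers 0 higher and 5 of 6 lower (1942 to 2317 and 1242 to 1466 CPM), and of the pan-neuronal markers 0 higher and 6 of 8 lower (13487 to 14617 and 9333 to 10817 CPM). Of 5 fibroblast markers tested, 2 were higher and 1 lower (92.6 to 159 and 70 to 119 CPM). No T or B cell marker was tested (2.04 to 6.26 and 0.661 to 1.27 CPM), and of 5 mast cell markers only Kit was, 2.73-fold lower (edgeR adjusted p = 2.01e-05), with the list at 48.1 to 68.8 and 19.2 to 27.2 CPM. Of 9 neutrophil markers 2 were tested (11.2 to 23 and 9.63 to 11.2 CPM). S100a8 was called higher, from 0.362 ± 0.725 to 8.86 ± 1.57 CPM, and Ms4a3 lower, from 14.1 ± 3.3 CPM to 0 in all 4 libraries (edgeR adjusted p = 0.000231 and 3.15e-06, n = 4 each). The part of these cell types in the levels of the marker genes was not tested.

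At 42 h some of the genes were found in all libraries and others in few. Cd68 and Csf1r were above 0 in all 32 siRNA libraries and all 12 mRNA libraries, and Mrc1 in 30 of 32 and 12 of 12. C1qa was above 0 in 1 of 32 and 2 of 12, and C1qc in 1 of 32 and 1 of 12, each time with about 1 read. C1qb was above 0 in 15 of 32 and 3 of 12. The remaining genes were found in part of the libraries: Aif1 in 21 of 32 and 6 of 12, Cx3cr1 in 13 and 6, Ptprc in 14 and 10, and Tyrobp in 10 and 3.

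**Figure D3:**
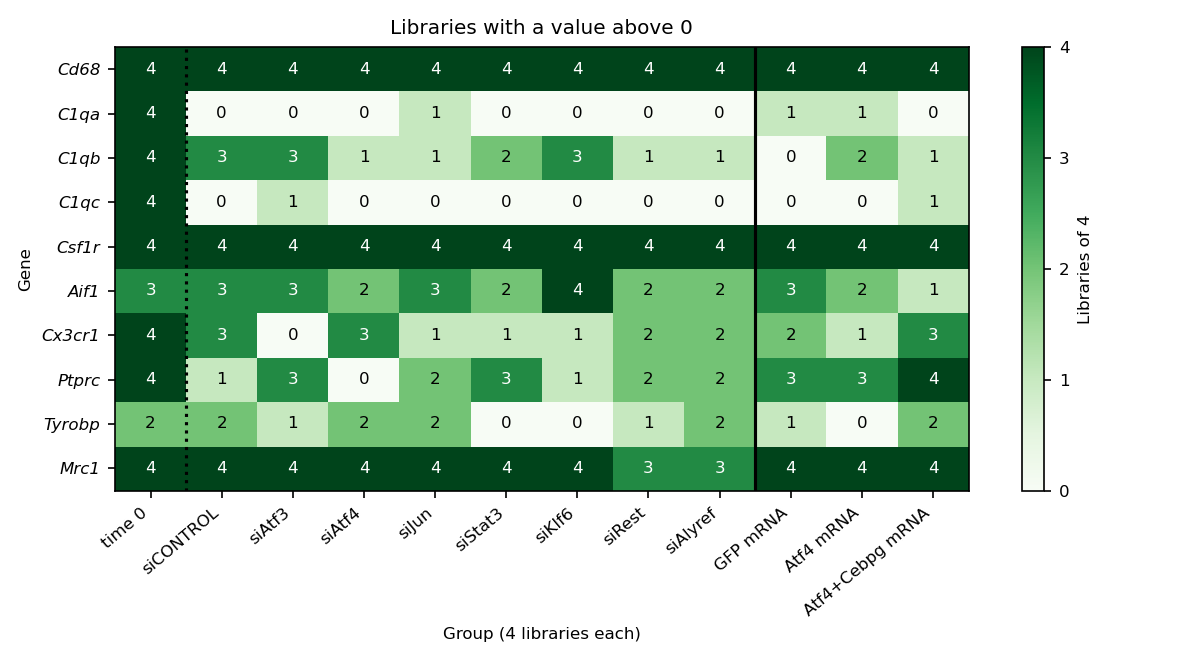
Number of the 4 libraries of each group (columns) in which each gene (rows) was above 0, with darker green for more libraries; the dotted line separates time0 from the siRNA groups of 42 h, and the solid line separates the mRNA groups. Cd68 and Csf1r were found in all libraries, while C1qa and C1qc were found in all 4 at 0 h and in 1 of 32 siRNA libraries.

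The knockdown groups show how the marker genes stood when a transcription factor, or the mRNA export factor Alyref, was targeted in these cultures. The 7 comparisons share the same 4 siCONTROL libraries and are therefore not independent of each other. In each, 3 of the 10 genes were tested (Cd68, Csf1r and Aif1), and the other 7 did not pass the filter. The sole call was Csf1r, lower in siAtf3. Of all 14876 genes tested in that comparison, 11.5% were called in either direction and 7.49% were called lower.

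Csf1r was at 1.7, 0.261, 2.1 and 1.47 CPM in siAtf3, against 2.37 to 5.61 CPM in siCONTROL. All 4 siAtf3 libraries lay below all siCONTROL libraries, and their mean of 1.38 ± 0.793 CPM (SD, n = 4) was near that of time0. The difference was 3.23-fold (log2 fold change -1.69, SE 0.459, edgeR adjusted p = 0.0133). The call rested in part on replicate 2, the lowest library: without it the log2 fold change was -1.35 and the adjusted p 0.0557.

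Markers of other cell types moved in siAtf3 as well. Of 8 pan-neuronal markers 6 were called lower and 0 higher, with a summed level of 7849 to 8663 CPM against 9333 to 10817 CPM in siCONTROL. Of the satellite glia markers only Glul, glutamine synthetase, was called (2.17-fold lower, edgeR adjusted p = 2.94e-08; list at 522 to 657 against 732 to 854 CPM), and of the Schwann cell markers only Pmp22, a myelin protein (1.44-fold lower, adjusted p = 0.000106; list at 912 to 1073 against 1242 to 1466 CPM). The neutrophil list, without a call, stood at 13.7 to 31.4 against 9.63 to 11.2 CPM. The part of these cells in the level of Csf1r was not tested.

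In siJun, Csf1r was at 2.18, 1.01, 2.49 and 3.36 CPM, which overlapped siCONTROL, and the log2 fold change of -0.94 (SE 0.437) did not pass after adjustment (edgeR adjusted p = 0.227). In the other 5 knockdowns the fold changes of Csf1r on the log2 scale were -0.79 (siKlf6), -0.74 (siAtf4), -0.26 (siAlyref), -0.24 (siStat3) and -0.20 (siRest), with edgeR adjusted p of 0.382 or more. By mean level Csf1r ran from siAtf3 (1.38 CPM) through time0 (1.53), siJun (2.26), siKlf6 (2.46), siAtf4 (2.65), siAlyref (3.7), siStat3 (3.74) and siRest (4.04) to siCONTROL (4.38), and every pair of neighbours in this order overlapped.

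Cd68 was not called in any knockdown by the main edgeR fit, and the nearest to the threshold was siStat3. Its level there was 47, 63, 41.7 and 51.6 CPM, and each of these libraries was above every siCONTROL library. The mean was 50.8 ± 9.08 CPM against 30.4 ± 6.99 CPM in siCONTROL (SD, n = 4 each; log2 fold change 0.73, SE 0.214, edgeR adjusted p = 0.0595). DESeq2 called it (log2 fold change 0.74, adjusted p = 0.026), and so did edgeR without siCONTROL replicate 2 (0.89, adjusted p = 0.0305). With the replicate number as a block in the fit, edgeR called it too (0.73, adjusted p = 0.00745). The other 10 of 13 alternatives gave no call, with an edgeR adjusted p of up to 0.198 when single libraries were left out.

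In siKlf6, Cd68 was at 25.2, 55.1, 57.5 and 48 CPM. The first of these is the library with the lowest total of all, and it was the only one within the siCONTROL range. The log2 fold change was 0.65 (SE 0.215, edgeR adjusted p = 0.142) with all libraries and 0.80 (adjusted p = 0.0373) without it. The other 12 of 13 alternatives gave no call. With other single libraries left out, the log2 fold change fell to 0.54 and the edgeR adjusted p rose to 0.355.

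In siRest, Cd68 was at 47.1, 58.1, 35.4 and 33.7 CPM (log2 fold change 0.50, edgeR adjusted p = 0.734). On the low side were siJun, at 29.9, 27.5, 17.8 and 18.6 CPM (-0.39, adjusted p = 0.353), and siAtf3, at 24, 26.4, 20.3 and 26.6 CPM (-0.33, adjusted p = 0.386). All 3 groups overlapped siCONTROL. The means of siAtf4 and siAlyref were 33.3 and 35.5 CPM, with log2 fold changes of 0.11 and 0.21 (edgeR adjusted p = 0.851 and 0.736).

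Ordered by mean, Cd68 ran from time0 through siJun (23.5 CPM), siAtf3 (24.3), siCONTROL (30.4), siAtf4, siAlyref, siRest (43.6) and siKlf6 (46.4) to siStat3 (50.8). Only time0 and its neighbour siJun did not overlap, so within the 42 h groups the order of neighbours is not resolved. Csf1r and Cd68 did not share an order: siCONTROL had the highest mean of Csf1r and the fourth lowest of Cd68.

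**Figure D4:**
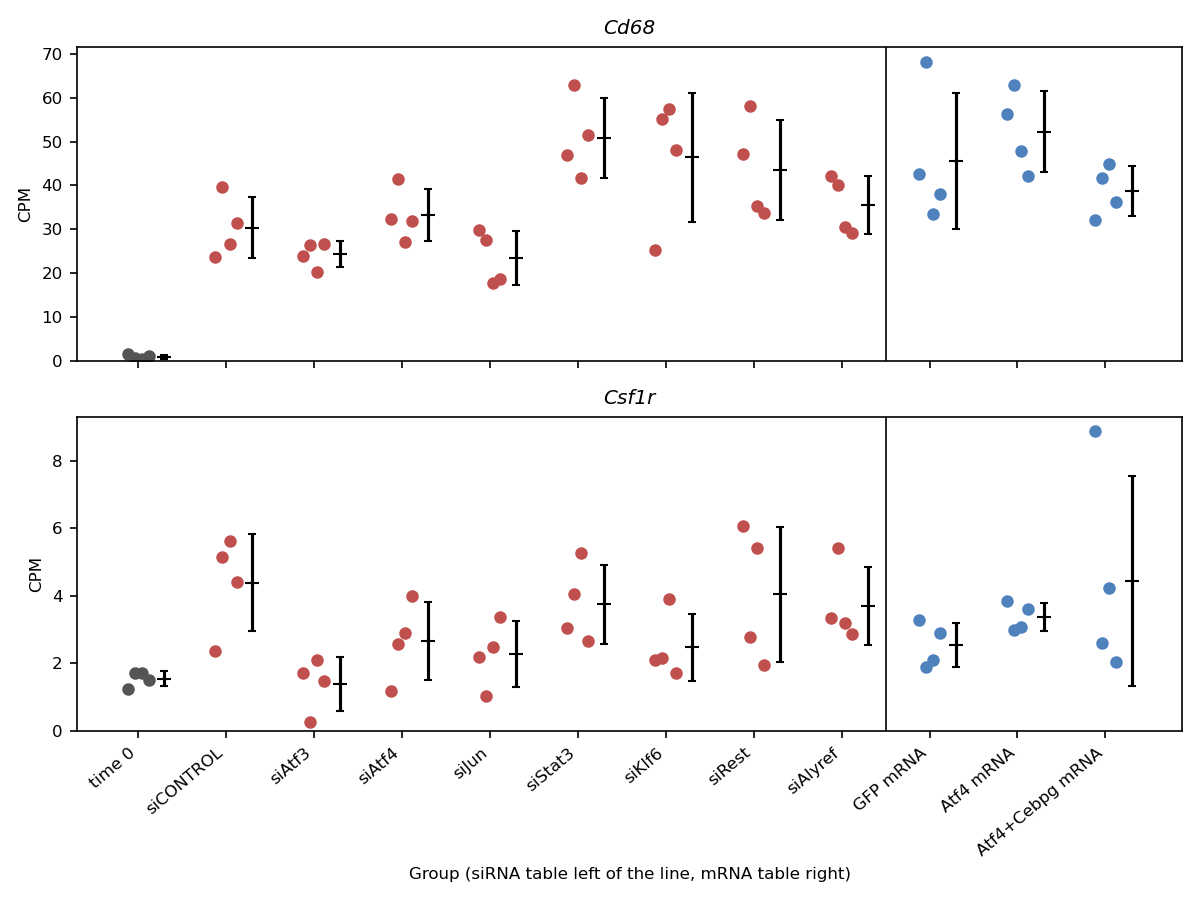
Levels of Cd68 and Csf1r in CPM in each library of the 12 groups, with 1 point per library and the mean ± SD beside them (n = 4 each), the siRNA groups left and the mRNA groups right of the line. Cd68 is near 1 CPM in time0 and between 17.8 and 68.2 CPM in the groups of 42 h, and Csf1r is lowest in siAtf3 and time0.

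Aif1 varied too much to compare. Its means were 0.849 ± 0.605 CPM in siCONTROL and 2.57 ± 1.2 CPM in siKlf6 (SD, n = 4 each), the highest of the knockdown groups and the only one with all 4 libraries above 0 (log2 fold change 1.61, SE 1.2, edgeR adjusted p = 0.665). In the other 6 knockdowns the fold changes lay between -0.56 and 0.42 on the log2 scale, with standard errors of 1.12 or more.

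In the main edgeR fit no member of the list was called in the other 6 knockdowns. The share of all genes called was 6.91% for siAtf4, 7.78% for siJun, 3.03% for siStat3, 1.85% for siKlf6, 0.202% for siRest and 4.26% for siAlyref. At an unadjusted p below 0.05 there was 1 gene each in siJun (Csf1r), siStat3, siKlf6 and siRest (Cd68), and 0 in siAtf4 and siAlyref. DESeq2 called 1 gene in siStat3 and 0 in siAtf4, siJun, siKlf6, siRest and siAlyref.

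The 7 genes below the filter stayed near the detection limit in every knockdown. Mrc1 was the steadiest, with group means between 0.219 CPM (siStat3) and 0.739 CPM (siJun), below its mean of 1.44 CPM in time0. C1qb reached at most 1.53 CPM in a single library, in siKlf6, below the lowest time0 library. Tyrobp was at 0 in all 4 libraries of siKlf6 and of siStat3, and Cx3cr1 in all 4 of siAtf3, where 1 read is worth 4.39 and 0.542 estimated counts. These zeros set no difference from siCONTROL at this depth.

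Among the related lists, Mmp12 was called in 4 knockdowns. Its mean was 30.7 ± 7.33 CPM in siCONTROL. It was 94.9 ± 9.12 CPM in siStat3 (3.11-fold higher, edgeR adjusted p = 8.08e-08) and 56.2 ± 5.25 CPM in siKlf6 (1.83-fold higher, adjusted p = 0.00273). It was 15.8 ± 3.05 CPM in siAtf3 (1.92-fold lower, adjusted p = 0.000324) and 8.88 ± 0.387 CPM in siJun (3.44-fold lower, adjusted p = 1.53e-07; n = 4 in every group). When siKlf6 and siCONTROL were fitted alone, the adjusted p in siKlf6 was 0.073. The Cd68 means of these groups, which gave no call in the main edgeR fit, were 50.8 CPM in siStat3, 46.4 in siKlf6, 24.3 in siAtf3 and 23.5 in siJun.

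Ly86 was 2.3-fold higher in siJun (147 ± 32.4 against 64.4 ± 10.4 CPM, edgeR adjusted p = 0.000115, n = 4 each) and 1.72-fold lower in siAtf3 (adjusted p = 0.0106). Cd14, a co-receptor for lipopolysaccharide, was 2.02-fold lower in siAtf3 (adjusted p = 0.049). Of the Csf1r ligands, Csf1 was 1.93-fold lower in siJun (52.2 ± 10.2 against 101 ± 7.58 CPM, adjusted p = 2.38e-06). C1s1, a protease that works with C1q, was 3.18-fold higher in siAtf3 (adjusted p = 0.0435), from 0.682 ± 0.263 CPM in siCONTROL. The calls of Cd14 and C1s1 were lost whichever of the 8 libraries was left out, with adjusted p of up to 0.148 and 0.162. In siJun, markers of other cells moved too: Glul, Pmp22 and Tubb3 were 2.27-fold, 1.5-fold and 1.33-fold lower (edgeR adjusted p = 2.27e-08, 4.32e-05 and 0.00202). Prph was 1.2-fold higher (adjusted p = 0.00678). In siStat3, Elavl4 and Rbfox3 were 1.42-fold and 1.36-fold lower (adjusted p = 0.0349 and 0.00508). The part of these cells in the levels of Csf1, Ly86 and Mmp12 was not tested.

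The mRNA groups give the levels of the marker genes when Atf4 was supplied alone or with Cebpg. Only Cd68 and Csf1r were tested, and edgeR called 0 of them in each of the 3 comparisons. There were also 0 at an unadjusted p below 0.05 and 0 by DESeq2. The share of all 13857 genes called was 4.84% for Atf4 mRNA against GFP mRNA, 24.6% for Atf4 and Cebpg mRNA against GFP mRNA and 6.60% for Atf4 and Cebpg mRNA against Atf4 mRNA.

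Cd68 was at 42.5, 68.2, 33.5 and 38.1 CPM with GFP mRNA, at 56.2, 63, 47.9 and 42.1 CPM with Atf4 mRNA and at 32.1, 41.7, 44.8 and 36.3 CPM with both mRNAs. The 3 groups overlapped. Log2 fold changes were 0.19 (SE 0.198, edgeR adjusted p = 0.661) for Atf4 and -0.23 (SE 0.203, adjusted p = 0.445) for Atf4 and Cebpg, each against GFP, and -0.43 (SE 0.203, adjusted p = 0.253) between the latter groups.

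Csf1r was at 3.28, 1.88, 2.09 and 2.89 CPM with GFP mRNA, at 3.83, 2.98, 3.06 and 3.61 CPM with Atf4 mRNA and at 8.87, 2.6, 4.22 and 2.03 CPM with both. The highest value came from replicate 1 of the last group, its library with the lowest total. Against GFP the log2 fold changes were 0.38 (SE 0.415, edgeR adjusted p = 0.69) and 0.69 (SE 0.419, adjusted p = 0.257), and between the latter groups 0.32 (SE 0.414, adjusted p = 0.722).

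Of the genes below the filter, Mrc1 was at 0.256 to 0.401 CPM with GFP mRNA, at 0.391 to 0.748 CPM with Atf4 mRNA and at 0.49 to 0.89 CPM with both. The first and last of these ranges did not overlap, and without the filter the difference between them gave an edgeR adjusted p of 0.355 (log2 fold change 1.15, SE 0.794). Ptprc was at 0 to 0.104 CPM with GFP mRNA and at 0.4 to 0.53 CPM with both mRNAs, again without overlap, where 1 read is worth about 0.428 estimated counts. Without the filter its edgeR adjusted p was 0.0636, with every GFP mRNA value of Ptprc rounded to 0 for the test. The C1q chains were above 0 in at most 2 of 4 libraries of any mRNA group.

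Both Csf1r ligands were lower with Atf4 and Cebpg mRNA than with GFP mRNA, while Csf1r was not called. Csf1 was at 71 ± 10.8 against 114 ± 10.8 CPM (1.61-fold, edgeR adjusted p = 0.000572) and Il34 at 34.6 ± 5.81 against 56.8 ± 5.54 CPM (1.61-fold, adjusted p = 0.00503; SD, n = 4 each). Gpnmb was 1.95-fold lower (adjusted p = 0.00038), and Ctsk, cathepsin K, 3.08-fold higher (adjusted p = 0.000983). Mertk was 1.53-fold higher (adjusted p = 0.0439), and DESeq2 did not call it (adjusted p = 0.0807). Markers of other cells moved both ways in the same comparison. Lum, lumican of fibroblasts, was 14-fold higher (adjusted p = 0.000134), the only call of 6 fibroblast markers (list at 80.7 to 116 against 50.5 to 101 CPM). S100a8 was 2.44-fold higher (adjusted p = 0.0174, 0.0511 without GFP mRNA replicate 4 and 0.065 without Atf4 and Cebpg mRNA replicate 4). It was the only call of 2 neutrophil markers tested (list at 24 to 39.4 against 8.08 to 15.7 CPM). Of 6 endothelial markers 3 were higher (220 to 270 against 133 to 198 CPM). The satellite glia, Schwann cell and pan-neuronal lists each had 1 marker higher (Apoe, Ngfr and Rbfox3) and 1 lower. The lower ones were Glul (2.33-fold), Pmp22 (1.45-fold) and Tubb3 (1.6-fold; adjusted p = 1.72e-05, 0.0028 and 1.76e-05). The part of these cells in the levels of the marker genes and related genes was not tested. With Atf4 mRNA alone, Ctsk was 2.56-fold higher (adjusted p = 0.0149, and 0.052 without Atf4 mRNA replicate 4) and Ly86 1.54-fold lower (adjusted p = 0.0204, and up to 0.0622 with single libraries left out).

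Cd68 was the only one of the 10 genes with a mean of at least 5 CPM over the 32 siRNA libraries of 42 h, and the genes with the most similar pattern over them were Dexi, Pla2g3 and Yjefn3. Their Pearson correlations with Cd68 on log2 CPM were 0.83, 0.78 and 0.78. These libraries come from 8 groups in 1 table, so the correlations include differences between groups and between depths and are given as a description.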

How the data were processed

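RNA was made into stranded mRNA libraries, per the labels' protocols. The submitters' processing notes name kallisto and GRCm39. Which version, transcript annotation and scaling were used was not given in the sources used here. In 2 tables (36 siRNA and 12 mRNA libraries) the authors deposited estimated counts per gene, which are not whole numbers. Symbols were matched for 32470 of 34183 identifiers.

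Estimated counts were rounded and tested with edgeR 4.0.16 (R 4.3.3, limma 3.58.1; TMM, filterByExpr by group, quasi-likelihood F test, Benjamini-Hochberg over all genes tested, threshold 0.05) in 3 fits: time0 and siCONTROL; siCONTROL and the 7 knockdowns; and the 3 mRNA groups. The script was checked on simulated counts in which only better-expressed genes were changed, so the check does not cover genes near the detection limit. Log2 fold changes come from these fits. Fold bounds for genes at 0 use a floor of 3 reads over the group. Depth limits low genes: at the lowest totals 1 read is the step between 0 and the first value above it.

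Each marker gene is reported in every comparison. From each other list up to 4 called genes per comparison, those with the largest absolute fold change in it, were eligible for naming. Marker genes and lists were chosen with earlier results of these data known. Alternatives were DESeq2 1.42.0, no filter on low counts, a replicate block, separate fits and leaving out each library. Promoter sequences are from RefSeq.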

Additional observations from a re-analysis of the deposited data

How the results depend on the processing

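In the culture comparison all alternatives kept the calls of Cd68, Csf1r, C1qa and C1qb and their directions, with Cd68 between 4.92 and 5.63 on the log2 scale when single libraries were left out. Without the filter on low counts, 5 marker genes were lower in culture in place of 2, among them Ptprc with siCONTROL values rounded to 0. The count of lower genes in siAtf3 was 1, and 0 to 1 with single libraries left out (0 without siAtf3 replicate 2). The count of higher genes in siStat3 was 0, but 1 with DESeq2, 1 with the replicate block and 0 to 1 with single libraries left out. In siKlf6 it was 0, and 0 to 1 with single libraries left out. In all, 280 of 286 recomputed counts were equal to the main count or within 1.5 times of it. Most of these were 0 in the main fit and stayed at 0, where few genes were tested, so this share says little about stability.

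Replicate numbers are shared between groups, but the labels do not say that they pair samples. In no comparison did every same-numbered pair correlate above 0.1 in its deviations from the group means (0.033 to 0.092 in culture). Even so, in culture and in siRest 8 of 8 libraries correlated best with their own number, as did 5 to 7 of 8 in the other knockdowns but siKlf6 (6 of 6), and 8 of 8 in each mRNA comparison. The main tests do not include the replicate number, and whether same-numbered libraries share an animal or a preparation was not tested. With the replicate block Cd68 in siStat3 was called (log2 fold change 0.73, edgeR adjusted p = 0.00745), and the block changed the sign of Aif1 in siAtf4 (-0.09), siStat3 (0.03), siRest (-0.29) and siAlyref (0.08).

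Other signs that turned belonged to values that were not called. Without the filter Aif1 in siRest was -0.01. With single libraries left out, Aif1 ranged from -1.05 to 0.56 in siAtf4, -0.04 to 0.84 in siJun, -0.83 to 0.26 in siStat3, -1.74 to 0.46 in siRest and -1.70 to 0.26 in siAlyref. Cd68 ranged from -0.01 to 0.28 in siAtf4 and from -0.36 to 0.05 for Atf4 and Cebpg mRNA against GFP mRNA, and Csf1r from -0.42 to 0.06 in siRest and from -0.17 to 0.56 for Atf4 and Cebpg mRNA against Atf4 mRNA. The cause was not tested. No group of 4 libraries without a 0 held an outlying library by Dixon's criterion (53 tested).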
